A study of Macaca mulatta with 20 samples.

Results

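The 10 genes described here belong to the JAK and STAT pathway of cytokine signalling and its SOCS inhibitors: the kinases JAK2 and JAK3, the transcription factors STAT3, STAT4 and STAT5B, the inhibitors SOCS1, SOCS2, SOCS3 and CISH, and the target kinase PIM1. They were taken by name, and a probe counted when it was well above background on at least 5 of 20 arrays. All 13 probes of the 10 genes met this, so 10 of the 15924 genes measured are described. Each of the 13 probes was in fact well above background on all 20 arrays, and none was saturated.

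Gene expression was measured in whole blood of male rhesus macaques (Macaca mulatta) that received 10 Gy of X-rays to the thorax. This is a model of radiation injury to the lung, with the heart also in the field. The paper estimates that the blood pool as a whole received a smaller part of the midplane dose. Blood was drawn before exposure (pre-irradiation), on day 2, then on day 5 and last on day 30, with 5 arrays per group. The samples drawn before exposure were the only controls, and no unexposed animals followed over the same days are analysed here. All samples were RNA from stabilised blood, depleted of globin transcripts and hybridized to human Agilent arrays. Blood came from 8 animals per the labels, which were given fluids and pain relief as needed per the methods. Per the study's methods, samples were matched by animal with an exception in which RNA of different animals was pooled, and which array that is stays unknown here.

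In this pathway a cytokine joins its receptor chains, and the JAK kinases on the receptor tails phosphorylate each other, the receptor and then the STAT proteins that dock there. Phosphorylated STATs pair, enter the nucleus and switch on target genes, among them the genes of the SOCS proteins and CISH, which bind the receptor complex and dampen the signal. JAK2 serves the receptors of erythropoietin, G-CSF and GM-CSF, JAK3 serves lymphocyte receptors that share the common gamma chain, STAT3 answers to IL6 and G-CSF, STAT4 to IL12 in NK and T cells, and STAT5B to IL2 and to growth factors of blood cells. The arrays measure transcripts and not phosphorylation.

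The results on STAT3 and STAT4 rest on human probes that read the macaque transcripts, and 3 of them are shown because STAT4 has a pair of probes far apart in the gene and because the STAT3 probe lies in coding sequence. Coordinates are those of the array annotation (human build hg19, minus strand), and each probe is 60 bases long, given 5′ to 3′. The first STAT4 probe, the brighter, is the one used for STAT4 below, and lies at chr2:191895703-191895762, while the other lies 115618 bases away at chr2:192011381-192011440. The STAT3 probe lies at chr17:40474404-40474463. The other probes used are named by position only, JAK2 at chr9:5127355-5127414 (plus strand), JAK3 at chr19:17935597-17935656, STAT5B at chr17:40351196-40351255, SOCS1 at chr16:11348384-11348443, SOCS2 at chr12:93969799-93969858 (plus strand), SOCS3 at chr17:76353127-76353186, CISH at chr3:50644023-50644082 and PIM1 at chr6:37143102-37143161 (plus strand), the rest on the minus strand.
STAT4, brighter probe: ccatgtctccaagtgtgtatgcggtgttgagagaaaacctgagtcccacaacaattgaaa
STAT4, other probe: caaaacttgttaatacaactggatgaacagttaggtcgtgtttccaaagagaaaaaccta
STAT3, brighter probe: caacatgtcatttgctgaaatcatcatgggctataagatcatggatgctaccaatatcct

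A level below is the log2 processed signal of a gene's brightest probe minus the 75th percentile of its array, so 0 is the level of that percentile, and levels are compared within a probe only. A change is the log2 difference between arrays with the same replicate number, with the standard error (SE) of a limma fit that holds the replicate number as a block (5 pairs). A probe was called at p under 0.005 with a false discovery rate under 10%, adjusted over all 19956 probes tested. The arrays were alike, with 50.9% to 67.3% of spots well above background and correlations between arrays from 0.926 to 0.989. Day 5 replicate 3 stood apart, with the 67.3% and the lowest 75th percentile. On each of 5 slides every group had the same position, so group and position on the slide cannot be told apart.

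No gene of the 10 was called at any day. The genes that differed from pre-irradiation at an unadjusted p under 0.05 were SOCS3 (2.00-fold higher), JAK2 (1.72-fold higher) and STAT4 (1.39-fold lower) at day 2, and STAT5B (1.56-fold higher) at day 30. CISH had a fold of 1.73 at day 2 and 1.85 at day 30, but its pairs spread widely and its p was over 0.05. The called share of all probes was itself small, 0.0601% at day 2, 0% at day 5 and 0% at day 30. At an unadjusted p under 0.05, 2 genes were higher and 1 lower at day 2, against 8.46% and 6.55% of all probes. At day 5 there were 0 in either direction, against 7.35% and 3.82%. At day 30 there was 1 higher and 0 lower, against 7.43% and 10.1%. The median change of the 10 genes was 0.32, 0.14 and 0.12 at days 2, 5 and 30, beside medians over all probes of -0.038, 0.031 and -0.023. With 10 genes each of these counts stood within about 1 gene of what the share over all probes gives. In every pair, 2 genes were higher and 1 lower at day 2, against 6.17% and 8.19% of all probes. At day 5 there were 0 in either direction, against 7.24% and 5.86%. At day 30 there was 1 higher and 0 lower, against 7.41% and 10.5%.

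**Figure D1:**
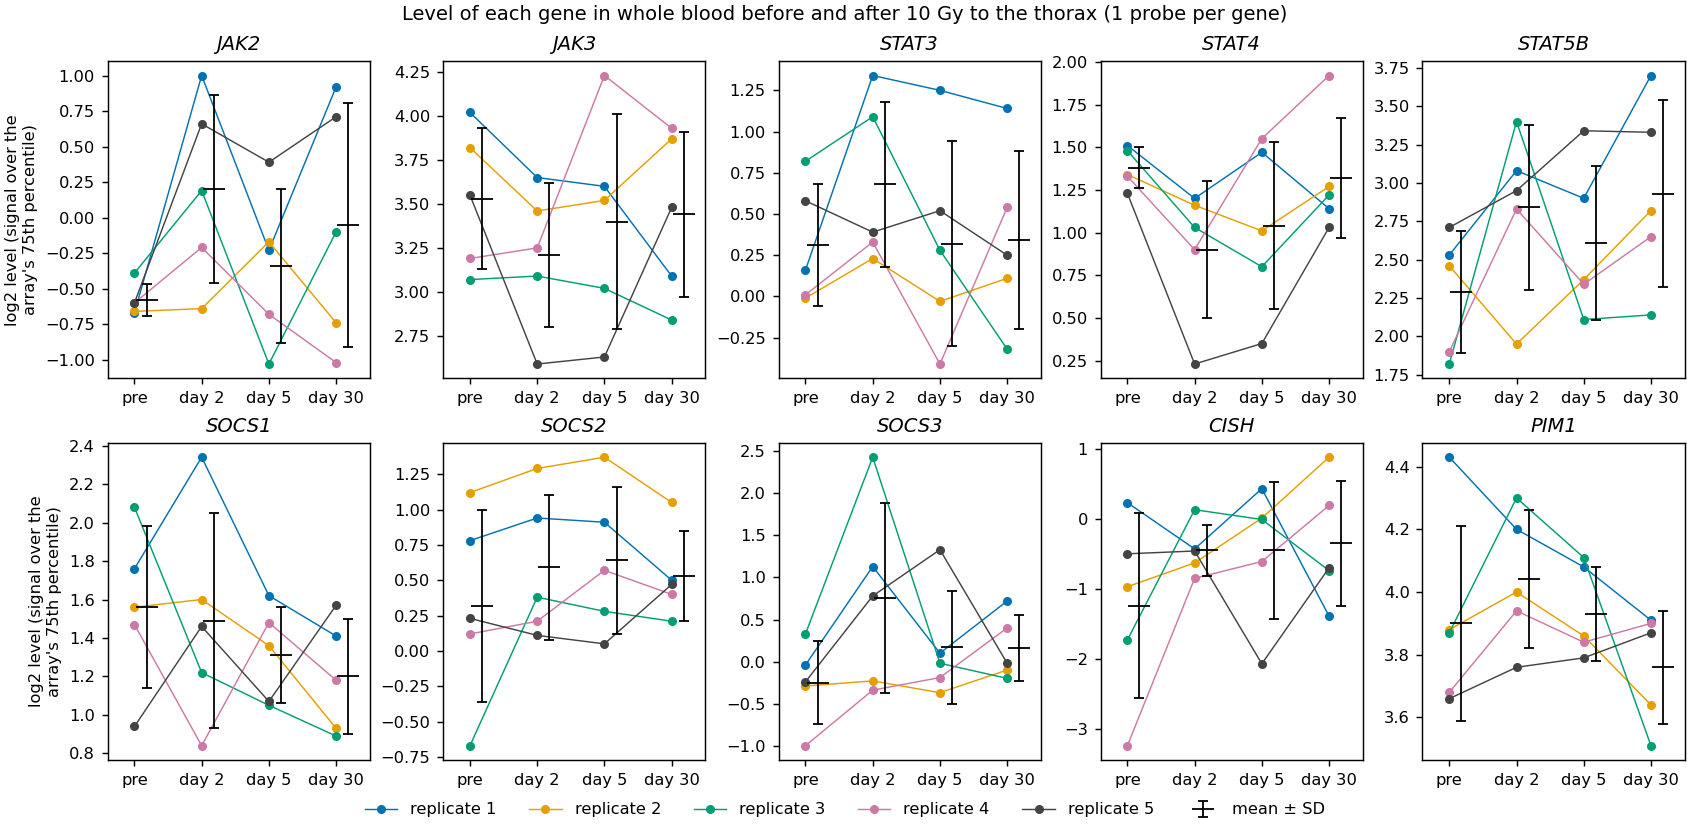
Level of each of the 10 genes on all 20 arrays, as log2 signal over the 75th percentile of the array (y axis, a separate scale per gene), by group (x axis). Lines join arrays with the same replicate number, and bars give the mean ± SD of 5 arrays. SOCS3 reached 2.43 on 1 array of day 2, STAT4 at day 2 lay below all 5 pre-irradiation arrays, and CISH ran from -3.24 to 0.88.

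JAK2, the kinase of the erythropoietin and colony-stimulating factor receptors, had almost the same level on all pre-irradiation arrays, -0.67, -0.66, -0.39, -0.60 and -0.60 for replicates 1 to 5. At day 2 the levels were 1.0, -0.64, 0.19, -0.21 and 0.66. Each pair was higher at day 2, by 1.66, 0.02, 0.58, 0.39 and 1.25, and the groups overlapped only because replicate 2 barely moved. The change was 0.78 (SE 0.25, adjusted p = 0.244). At day 5 it was 0.24 (SE 0.24) with 3 of 5 pairs higher, and at day 30 it was 0.53 (SE 0.31), again with 3 of 5. The SD was 0.11 among the pre-irradiation arrays and 0.66, 0.54 and 0.86 on days 2, 5 and 30. The day 2 change lost its unadjusted p under 0.05 in 3 of the 18 alternatives given at the end. Among them was the fit without replicate 5, when it was 0.66 (adjusted p = 0.365). The day 30 change had an unadjusted p under 0.05 without replicate 4, when it was 0.77 (adjusted p = 0.318).

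JAK3, the kinase of the common gamma chain receptors of lymphocytes, was 3.53 ± 0.40 (SD, n = 5) before irradiation, 3.21 ± 0.41 at day 2, 3.40 ± 0.61 at day 5 and 3.44 ± 0.47 at day 30. Its day 2 change was -0.32 (SE 0.19) with 3 of 5 pairs lower, and the neighbouring groups overlapped on every comparison. The single lowest level, 2.59, and the single highest, 4.23, came from replicate 5 at day 2 and replicate 4 at day 5. A second JAK3 probe gave -0.08 (SE 0.18) at day 2. That value was within its SE of 0. At day 5 the second probe was at 0.17 (SE 0.16, 4 of 5 pairs higher), and the brighter probe at -0.13 (SE 0.27, 4 of 5 pairs lower). The probes thus differed in sign at day 5, and neither passed the test.

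**Figure D2:**
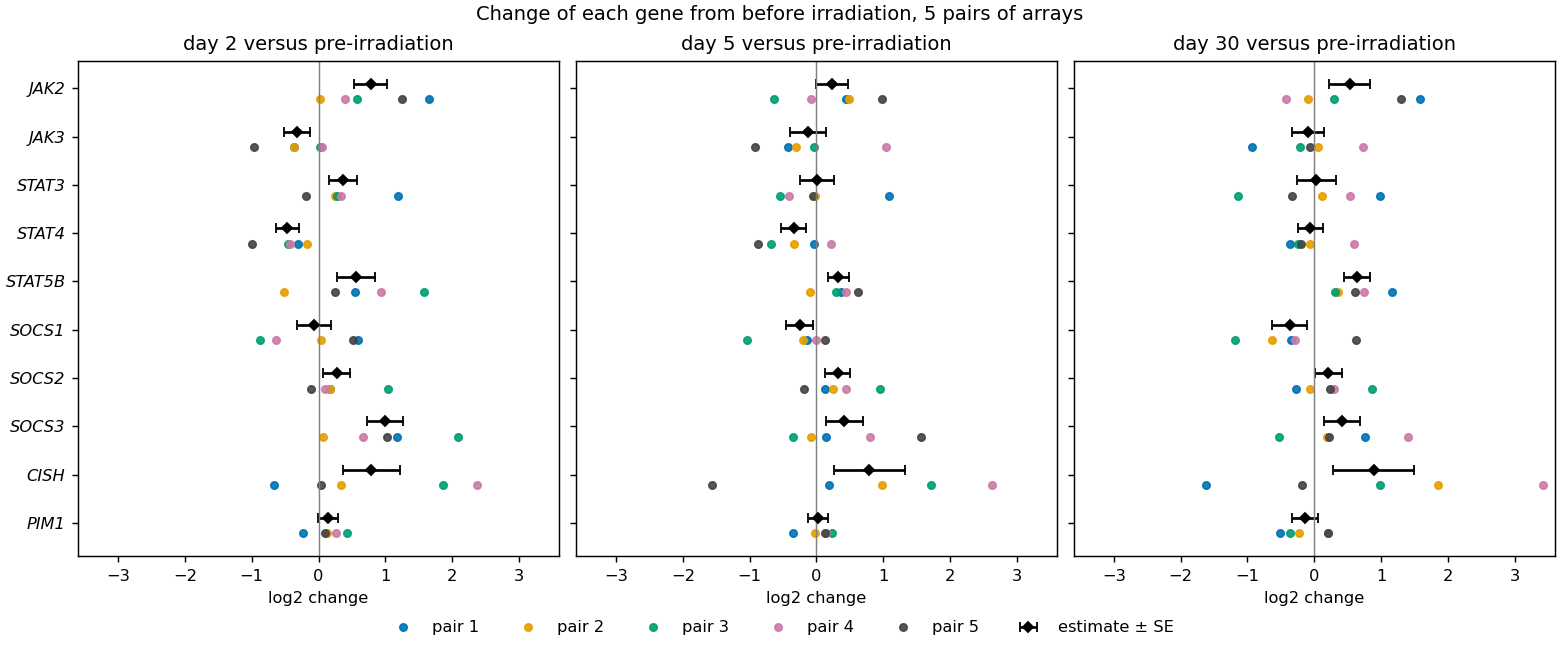
Log2 change of each of the 10 genes (y axis) from pre-irradiation at day 2, day 5 and day 30 (x axis, log2). Coloured points are the 5 pairs of arrays and diamonds the limma estimate ± SE. The 5 pairs lie on the same side of 0 for JAK2, STAT4 and SOCS3 at day 2 and for STAT5B at day 30, and the CISH pairs spread from -1.62 to 3.42 at day 30. Of all probes 6.17% were higher and 8.19% lower in every pair at day 2, and 7.41% higher at day 30.

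STAT3, the factor downstream of IL6 and G-CSF, was 0.31 ± 0.37 (SD, n = 5) before irradiation and 0.68 ± 0.50 at day 2, then 0.32 ± 0.62 at day 5 and 0.34 ± 0.54 at day 30. Replicate 1 was the high array at each day after exposure (1.34, 1.25 and 1.14), against 0.16 before. The day 2 change was 0.37 (SE 0.21, 4 of 5 pairs higher, adjusted p = 0.432), and the probe in another part of the gene, printed on 10 spots of each array, gave 0.44 (SE 0.20). At day 5 and day 30 the changes were 0.01 (SE 0.25) and 0.03 (SE 0.29). Leaving out replicate 1 turned both, to -0.25 and -0.20.

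STAT4, the factor through which IL12 acts on NK and T cells, was 1.51, 1.34, 1.48, 1.33 and 1.23 in the pre-irradiation replicates 1 to 5. At day 2 the levels were 1.20, 1.16, 1.03, 0.90 and 0.23. Every day 2 array lay below every pre-irradiation array, the only comparison of these 10 genes with pre-irradiation in which the groups did not overlap, and 1.09% of all probes were lower without overlap at day 2. The change was -0.47 (SE 0.17, adjusted p = 0.264), with all 5 pairs lower. The other STAT4 probe gave -0.83 (SE 0.27, adjusted p = 0.244, 4 of 5 pairs lower), so a pair of probes at distant places of the gene had the same direction. The change was -0.34 (SE 0.19) at day 5 and -0.06 (SE 0.19) at day 30, when replicate 4 reached 1.92. The other probe gave -0.45 (SE 0.39, 3 of 5 pairs higher) at day 5 and -0.33 (SE 0.30, 3 of 5 pairs lower) at day 30. Between day 2 and day 30 the change of the brighter probe was 0.42 (SE 0.20, adjusted p = 0.419, 4 of 5 pairs higher). The day 2 change lost its unadjusted p under 0.05 in 3 of the 18 alternatives. Among them were the fits without replicate 4 (-0.49, adjusted p = 0.562) and without replicate 5 (-0.34, adjusted p = 0.383).

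STAT5B, the factor of IL2 and of haematopoietic growth factors, was 2.53, 2.46, 1.82, 1.90 and 2.71 before irradiation. At day 30 it was 3.70, 2.82, 2.14, 2.65 and 3.33. All 5 pairs were higher, by 1.17, 0.36, 0.31, 0.75 and 0.61, and the groups overlapped. The change was 0.64 (SE 0.19, adjusted p = 0.169). The day 2 change was 0.56 (SE 0.28), with replicate 2 lower (-0.51) and the others higher, and without replicate 2 it was 0.82 (adjusted p = 0.159). At day 5 it was 0.33 (SE 0.16) with 4 of 5 pairs higher. The day 30 change lost its unadjusted p under 0.05 in 2 of the 18 alternatives. Among them was the fit without the replicate block (adjusted p = 0.345).

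SOCS3, the feedback inhibitor of IL6 and G-CSF signalling, was -0.04, -0.29, 0.33, -1.0 and -0.24 before irradiation. At day 2 it was 1.13, -0.23, 2.43, -0.34 and 0.78, so replicates 1, 3 and 5 were high and replicates 2 and 4 were in the range of the arrays before. All 5 pairs were higher, by 1.17, 0.06, 2.09, 0.66 and 1.02. The change was 1.0 (SE 0.27, adjusted p = 0.204), the smallest p of the 10 genes at day 2. Leaving out each replicate in turn gave 0.73 to 1.24, and without replicate 2 the gene was called (adjusted p = 0.0914), where 588 of 19950 probes were called. The changes at day 5 and day 30 were 0.42 (SE 0.28, 3 of 5 pairs higher) and 0.41 (SE 0.27, 4 of 5). Without the replicate block, and with the slide as a block in its place, the day 2 change had an unadjusted p over 0.05 (adjusted p = 0.463 and 0.47).

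SOCS1, the inhibitor of interferon signalling, was 1.56 ± 0.42 (SD, n = 5) before, 1.49 ± 0.56 at day 2, 1.31 ± 0.25 at day 5 and 1.20 ± 0.30 at day 30. The changes were -0.07 (SE 0.25), -0.25 (SE 0.20) and -0.37 (SE 0.26), and 4 of 5 pairs were lower at day 30. Replicate 5 was the exception, 0.63 higher at day 30, and without it the change was -0.61 (adjusted p = 0.281). SOCS2, which restrains growth hormone signalling, had changes of 0.27 (SE 0.20), 0.32 (SE 0.19) and 0.21 (SE 0.20). For SOCS2 the replicate means spread wider than the group means. The mean over the 4 arrays of a replicate ran from 0.05 for replicate 3 to 1.21 for replicate 2, while the group means lay between 0.32 and 0.64.

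CISH, the STAT5 target that inhibits the receptors of IL2 and erythropoietin, was the most variable of the 10. Its levels before irradiation were 0.23, -0.97, -1.73, -3.24 and -0.50, an SD of 1.32. At day 2 they were -0.43, -0.63, 0.13, -0.85 and -0.46, within a narrow band (SD 0.36). At day 30 the levels were -1.39, 0.88, -0.74, 0.19 and -0.70. The changes were 0.79 (SE 0.43), 0.79 (SE 0.53) and 0.89 (SE 0.61), with 4, 4 and 3 of 5 pairs higher, and none passed the test. The single pair of replicate 4, which was lowest before irradiation, was higher by 2.38, 2.63 and 3.42. The day 30 change was 1.52 without replicate 1 (adjusted p = 0.308), and the day 5 change was 1.38 without replicate 5 (adjusted p = 0.363). CISH had a within-group SD of 0.95, larger than that of 95.1% of all probes.

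PIM1, a serine and threonine kinase that promotes cell survival and is a target of STAT5 and STAT3, was the steadiest of the 10. It was 3.90 ± 0.31 (SD, n = 5) before irradiation, 4.04 ± 0.22 at day 2, 3.93 ± 0.15 at day 5 and 3.76 ± 0.18 at day 30. The changes were 0.14 (SE 0.15), 0.03 (SE 0.15) and -0.14 (SE 0.19), and its within-group SD of 0.22 was larger than that of only 8.2% of all probes. Between these extremes JAK2 and SOCS3 were more variable than 80.8% and 88.6% of probes.

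Between the days after exposure no gene of the 10 was called, against 0% of all probes between days 5 and 2, 0.0501% between days 30 and 2, and 0% between days 30 and 5. The smallest p of each comparison belonged to JAK2 (-0.54 from day 2 to day 5, SE 0.27, adjusted p = 0.972), STAT4 (from day 2 to day 30, given above) and STAT5B (0.31 from day 5 to day 30, SE 0.19, adjusted p = 0.641). SOCS3 differed by -0.58 from day 2 to day 5 (SE 0.41, adjusted p = 0.972, 3 of 5 pairs lower). None of these differences passed, so whether the day 2 values of JAK2 and SOCS3 receded by day 5 was not resolved.

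The changes of several of the 10 genes went with marker genes of blood cell types. In whole blood, fewer cells of a type and less RNA per cell cannot be told apart. Of 12 neutrophil marker genes 11 were measured (FCGR3B was not above background), and all 11 were higher at each day, with medians of 1.01, 0.64 and 1.11. At an unadjusted p under 0.05, 6, 9 and 7 were higher, against 8.46%, 7.35% and 7.43% of all probes. The log2 of the summed level of these 11 ran from 5.08 to 7.79 before irradiation, 6.42 to 8.78 at day 2, 6.58 to 8.22 at day 5 and 7.30 to 10.05 at day 30. Of 12 NK cell markers 11 were measured (CD160 was not above background), and their median change was -1.41 at day 2, -0.77 at day 5 and 0.08 at day 30. At day 2 and at day 5, 10 of the 11 were lower, and NCAM1 was higher (0.19, SE 0.22, and 0.50, SE 0.28). At day 30, 7 were higher, NCAM1 among them (0.79, SE 0.19), and 4 lower. The summed level of the NK markers ran from 6.03 to 7.17 before, 4.75 to 5.97 at day 2, 5.08 to 6.89 at day 5 and 6.59 to 7.63 at day 30. The T cell markers, all 12 measured, had medians of -0.42, -0.29 and -0.35, and 10 of 12 B cell markers (not MS4A1 or PAX5) had -0.60, -0.51 and -0.42. The medians were 0.61, 0.39 and 0.63 for monocyte markers, 1.46, 0.45 and -0.09 for platelet markers, -0.07, 0.17 and -0.68 for erythroid markers and 1.10, 0.26 and 0.36 for interferon response genes. At day 2, 10 of 11 NK, 7 of 12 T cell and 8 of 10 B cell markers were lower at an unadjusted p under 0.05, against 6.55% of all probes. Higher at such a p were 6 of 10 monocyte markers, 10 of 10 platelet markers and 1 of 21 interferon response genes, against 8.46%.

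**Figure D3:**
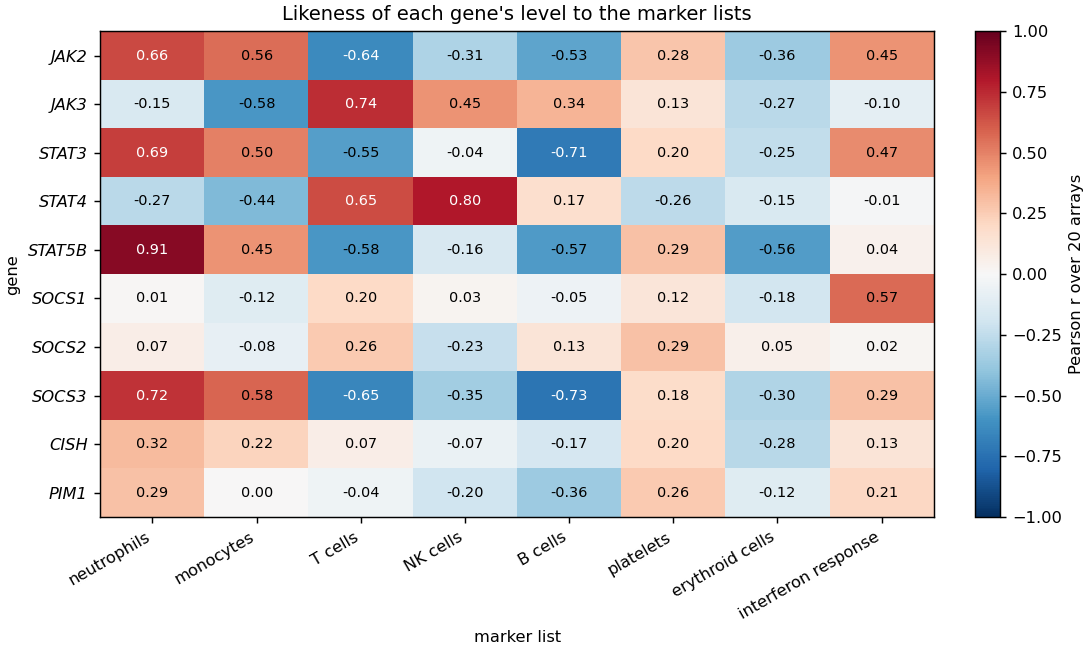
Pearson r between the level of each of the 10 genes (rows) and 8 marker lists (columns), over 20 arrays that share animals. The list value is the median over its genes of the deviation from the gene's mean. STAT5B with neutrophils reads 0.91, STAT4 with NK cells 0.80 and JAK3 with T cells 0.74, and SOCS2 and CISH read between -0.28 and 0.32 on every list.

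STAT5B followed the neutrophil list over the 20 arrays (Pearson r 0.91, Spearman rho 0.92), and with the group means removed r was 0.89. The arrays share animals, so this is a description and no test. The gene closest to STAT5B was MXD1, at r 0.97. In the day 30 pairs the neutrophil list was higher by 2.49, 0.67, 0.31, 2.18 and 0.29, beside the STAT5B pairs of 1.17, 0.36, 0.31, 0.75 and 0.61. STAT4 followed the NK list (r 0.80, group means removed 0.75) and the T cell list (r 0.65), and its closest gene was GZMH, a granzyme of cytotoxic lymphocytes (r 0.91). In the day 2 pairs the NK list was lower by 1.25, 0.46, 1.86, 1.34 and 2.16, and STAT4 was lower by 0.31, 0.18, 0.45, 0.43 and 1.0. The part of these cell types in either change was not tested.

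**Figure D4:**
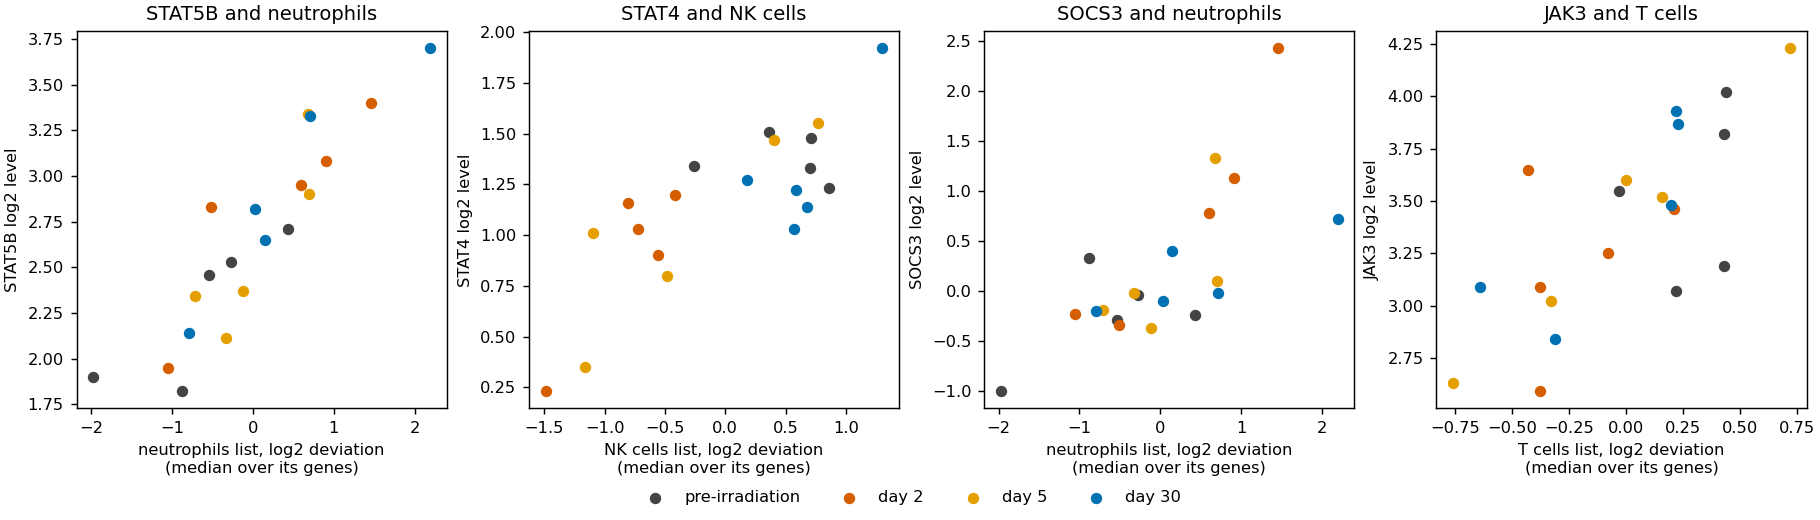
Level of STAT5B, STAT4, SOCS3 and JAK3 (y axis, log2) against a marker list (x axis, median log2 deviation over its genes), 1 point per array, coloured by group. The highest STAT5B array, day 30 replicate 1, has the highest neutrophil value, and the lowest STAT4 array, day 2 replicate 5, has the lowest NK value.

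SOCS3 went with the neutrophil list (r 0.72), with STAT3 (r 0.65) and with STAT5B (r 0.65), and against the B cell list (r -0.73). Its closest genes were WLS (r 0.90), FTH1, the ferritin heavy chain (r 0.90), and UPP1 (r 0.88). The day 2 pairs of the neutrophil list were 0.92, -0.33, 2.40, 1.39 and 0.21, and the SOCS3 pairs have the same array, replicate 3, as the largest and the same, replicate 2, as the smallest. Replicates 1, 4 and 5 were ordered differently, with SOCS3 at 1.17, 0.66 and 1.02. JAK2 went with STAT5B (r 0.71), with the neutrophil list (r 0.66), and against the T cell list (r -0.64). JAK3 went with the T cell list (r 0.74) and with STAT4 (r 0.75). The closest genes of JAK2 were C1GALT1C1, DAPP1 and CHSY1 (r 0.93, 0.91 and 0.91), and those of JAK3 were RSAD1, INTS1 and TMEM63A (r 0.88, 0.84 and 0.84).

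STAT3 was closest to NBEAL2 (r 0.92), IRF1, an interferon-induced factor (r 0.92), and ZNFX1 (r 0.91). Among the lists STAT3 went with the neutrophil list (r 0.69) and against the B cell list (r -0.71). Its r with the interferon response list was 0.47. SOCS1 was closest to ISG20 (r 0.75), LIG1 (r 0.74) and IFITM1 (r 0.73), and of the 8 lists its highest r was with the interferon response (0.57). That list was far from uniform across pairs at day 2: its median change was 4.37 in replicate 1 and 2.61 in replicate 2, but -0.69, -0.69 and 0.17 in replicates 3, 4 and 5. In the same pairs SOCS1 differed by 0.59, 0.04, -0.87, -0.64 and 0.52. SOCS2 was closest to PTCD1, CYLD and HSF1 (r 0.81, 0.79 and 0.76), CISH to SP110, LOC284014 and RABL2B (r 0.90, 0.90 and 0.89), and PIM1 to THRAP3 (r 0.82). Each r is the highest found among many probes, so it is a description.

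Among other genes of the pathway, no receptor, cytokine, STAT target or further inhibitor was called against pre-irradiation. Of 36 receptor genes 28 were measured. At day 2, 7 of the 28 were higher and 4 lower at an unadjusted p under 0.05, beside 8.46% and 6.55% of all probes. At day 5 the counts were 6 and 5, beside 7.35% and 3.82%, and at day 30 they were 4 and 6, beside 7.43% and 10.1%. The median change of the 28 was -0.05, -0.03 and -0.06 at the 3 days. CSF3R, the receptor of G-CSF, a growth factor of neutrophils, was higher by 1.0 (SE 0.20, adjusted p = 0.148) at day 2 and by 0.62 and 0.68 at days 5 and 30. IL13RA1 was higher by 1.01 (SE 0.21) at day 2, CSF2RB, the shared chain of the GM-CSF receptor, by 0.62 (SE 0.19), and EPOR by 0.72 (SE 0.16). The chains of the interferon gamma receptor, IFNGR1 and IFNGR2, were higher by 1.10 (SE 0.27) and 0.93 (SE 0.23) at day 2, each in 4 of 5 pairs, and by 0.86 (SE 0.20) and 0.63 (SE 0.22) at day 30, each in 5 of 5. IL6R was 0.36 at day 2 (SE 0.18, adjusted p = 0.39) and had a p over 0.05.

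Several other receptors had values below 0 at 1 or more days. IL2RB, the beta chain of the IL2 and IL15 receptors of NK and T cells, was -0.86 (SE 0.20) at day 2 and -0.74 (SE 0.21) at day 5, lower in all 5 pairs, and -0.06 (SE 0.18) at day 30. IL7R was -0.68 (SE 0.18), -0.60 (SE 0.23) and -0.64 (SE 0.23), lower in all 5 pairs at each day. IL6ST, the signal-carrying chain of the IL6 receptor, was -0.58 (SE 0.18), -0.43 (SE 0.20) and -0.69 (SE 0.19). IL12RB1 was -0.78 (SE 0.23) and IL27RA was -0.76 (SE 0.23) at day 30, and IL12RB2, the chain through which STAT4 is reached, was -0.64 (SE 0.40) at day 2, -0.05 (SE 0.40) at day 5 and 0.15 (SE 0.24) at day 30. IL2RA, IL2RG, IL4R and IL21R were also below 0 at day 2 (-0.22, -0.24, -0.16 and -0.37), each with an unadjusted p over 0.05. IL15RA was near 0 (0.01, SE 0.30). Of all 28 receptors measured, 15 were below 0 and 13 above at day 2, so a value below 0 does not set these apart. IL5RA was -1.58 (SE 0.52, adjusted p = 0.195) at day 30, with 4 of 5 pairs lower. IL10RA was -0.20 (SE 0.16) at day 2 and -0.15 (SE 0.15) at day 5. At day 30 IL10RA was 0.31 (SE 0.17), higher in 5 of 5 pairs.

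**Figure D5:**
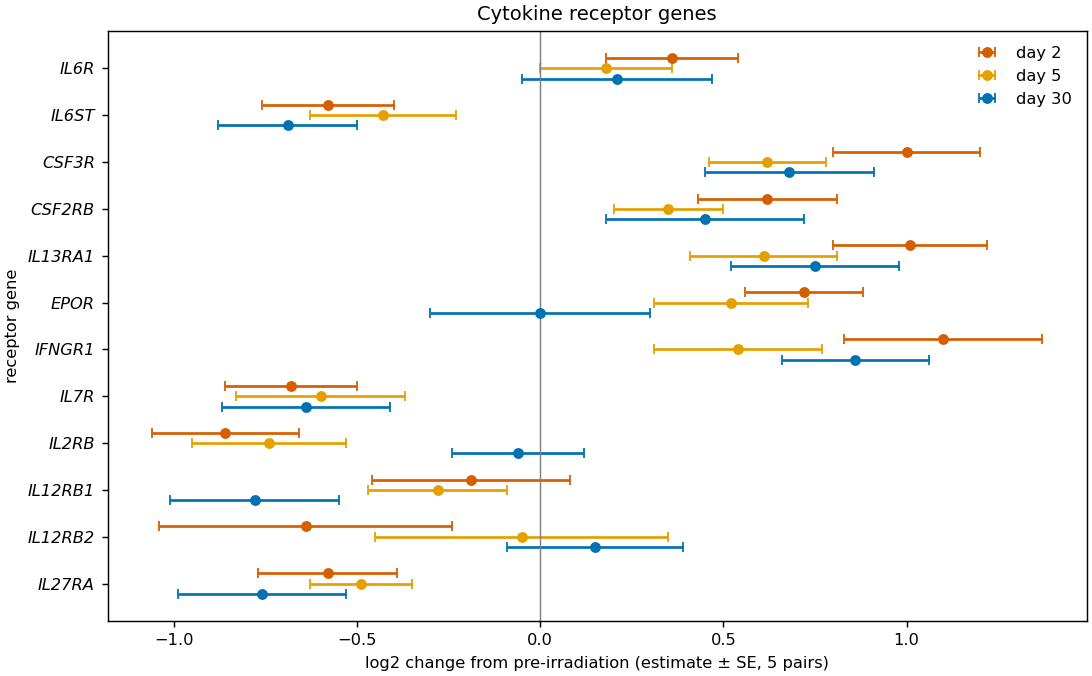
Log2 change from pre-irradiation (x axis, limma estimate ± SE, 5 pairs) of 12 cytokine receptor genes (y axis) at day 2, day 5 and day 30. CSF3R, CSF2RB, IL13RA1 and IFNGR1 lie to the right of 0 at each day, and IL7R, IL6ST and IL27RA to the left, while IL2RB is at -0.06 and EPOR near 0 at day 30.

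Among genes listed as STAT targets, 5 of 13 were higher at day 2 and 0 lower at an unadjusted p under 0.05, against 8.46% and 6.55% of all probes. At day 5 the counts were 2 and 1, against 7.35% and 3.82%. At day 30 they were 2 and 0, against 7.43% and 10.1%. The median change of the 13 was 0.34, -0.01 and 0.05 at days 2, 5 and 30. Of the targets among the 10 genes above, SOCS3 had such a p at day 2, and SOCS1, SOCS2, CISH and PIM1 did not. The 5 higher at day 2 included JUNB (0.95, SE 0.20), a partner in the AP-1 factor, and CEBPB (0.80, SE 0.18), a factor of myeloid cells. At day 30 BCL6 was higher by 1.04 (SE 0.27). Of 17 genes listed as other inhibitors, 1 (SH2B3, 0.42, SE 0.17) was higher and 1 (PIAS4, -0.33, SE 0.14) lower at day 2. These counts at an unadjusted p under 0.05 stand against 8.46% and 6.55% of all probes. At day 30, 2 were higher and 1 lower, against 7.43% and 10.1%. STAM2, an adaptor in the sorting of receptors, was higher by 1.0 (SE 0.17, adjusted p = 0.126). CBL, an E3 ligase of activated receptors, was higher by 0.77 (SE 0.24), and SOCS7, of the SOCS family, was lower (-0.49, SE 0.19, 5 of 5 pairs). Whether STAM2 or any other gene of this list dampened the signal was not tested. Of 26 cytokines 6 were measured, and for the rest a low level and a human probe that misses the macaque transcript cannot be told apart. OSM, which signals through IL6ST and STAT3, was 0.45 (SE 0.19) at day 2 and 0.57 (SE 0.24) at day 30, the 1 cytokine with an unadjusted p under 0.05 at either day. Of all probes 8.46% and 7.43% were higher at such a p at these days.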

How the data were processed

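The authors deposited, for each of 20 arrays (Agilent Whole Human Genome 4x44K v2, Cy3), Feature Extraction output with intensity columns, whose processed signals had local background removed and spatial trends corrected, with no scaling between arrays. The file headers give version 12.0.2.2 and the submitters' processing notes 10.7. The deposited log2 table of 5884 probes served as an alternative, and at least 96.9% of its values per array equalled the log2 processed signal plus a constant within 0.001. Here control spots and outlier spots were left out, log2 processed signals were scaled by the array's 75th percentile, spots of a probe averaged, and 19956 of 34127 probes kept, each well above background on 5 or more arrays. The brightest probe stood for a gene. Pairs of groups were tested with limma (3.58.1, R 4.3.3) with the replicate number as a block, Benjamini-Hochberg adjusted, and the script was tested on simulated data. Same-numbered arrays of different groups correlated by a median of 0.28 (-0.16 to 0.65, 30 pairs) after group means were removed, against -0.07 for other numbers, and the study's methods pair by animal. The number of arrays limits the precision. The genes named are the 10 members, pathway genes called or among the 6 with the largest change in every pair at each day, a set of receptors, and the 3 genes most like each member. IFNGR2, IL2RA, IL2RG, IL4R, IL5RA, IL21R, IL15RA, IL10RA, SH2B3, PIAS4, SOCS7, OSM, NCAM1 and the day 2 value of IFNGR1 fall outside this rule and were chosen after their values were seen. The members and lists were chosen with earlier results of these data known. Replicates are separate samples per the labels. The symbols of all 10 members are also in the RefSeq rhesus gene table (T2T-MMU8v2.0). A further pathway list is not reported here.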

Additional observations from a re-analysis of the deposited data

Results flagged for a closer look

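In 6 of 70 groups of 5 values tested, a single array or pair lay far from the other 4, by Dixon's test at the 95% level, which chance alone does for about 1 in 20. The JAK2 level of pre-irradiation replicate 3 was -0.39, with the nearest at -0.60. The STAT4 level of day 30 replicate 4 was 1.92, with the nearest at 1.27. The SOCS3 level of day 5 replicate 5 was 1.33, with the nearest at 0.10. The PIM1 level of pre-irradiation replicate 1 was 4.43, with the nearest at 3.88. The SOCS1 change of replicate 3 from pre-irradiation to day 5, the pair that holds the array that stood apart, was -1.04, with the nearest at -0.20. The SOCS2 change of replicate 3 from pre-irradiation to day 2 was 1.04, with the nearest at 0.17.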

How the results depend on the processing

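Of 591 gene values recomputed under 18 alternatives, 543 kept their direction and their side of an unadjusted p of 0.05, 10 lost it, 22 gained it and 16 turned in sign. The cause was not tested. With quantile normalization PIM1 at day 5 was -0.01. With median scaling STAT3 at day 5 was -0.11, PIM1 at day 5 -0.09 and STAT4 at day 30 0.01, and 1 gene rather than 0 had p under 0.05 between days 30 and 5. With normexp background correction, which moves the median of all probes to 0.166 at day 2 and 0.107 at day 30, PIM1 at day 2 was -0.30, 1 gene (STAT5B) was called at day 30, where 952 of 19956 probes were called against 0 in the report, and 1 gene had p under 0.05 at day 5, 1 between days 5 and 2, and 2 between days 30 and 2. With the deposited values STAT3 at day 5 was -0.01 and 1 gene (SOCS3) was called at day 2, where 327 of 5653 probes were called. Without the replicate block 0 genes had p under 0.05 at day 30, where the pairing gave 1. In 1 fit of all 20 arrays with the replicate block 1 gene had p under 0.05 between days 30 and 2. With the slide as a block it was 1 gene at day 5 and 1 between days 5 and 2, with an intensity trend 1 at day 5, and with each probe tested alone 1 between days 5 and 2. With the mean over probes JAK3 at day 5 was 0.02. Leaving out each replicate, the called genes at day 2 ranged from 0 to 1, those with p under 0.05 from 1 to 4 at day 2, 0 to 1 at day 5, 1 to 2 at day 30, 0 to 1 between days 5 and 2 and 0 to 1 between days 30 and 2. The values ranged for SOCS1 at day 2 from -0.24 to 0.13, JAK3 at day 5 from -0.42 to 0.07, STAT3 at day 5 from -0.25 to 0.15, PIM1 at day 5 from -0.02 to 0.12, JAK3 at day 30 from -0.29 to 0.12, STAT3 at day 30 from -0.20 to 0.33, and STAT4 at day 30 from -0.22 to 0.02. The calls over all probes at day 2 moved from 12 to 0 with quantile normalization, with normexp, with no filter on dim probes, without the replicate block, with each probe tested alone and without replicate 1, 4 or 5, to 1 with the slide as a block and 3 without replicate 3, and to 190 with probes well above background on all arrays, 200 with an intensity trend, 327 with the deposited values, 343 in the fit of all arrays and 588 without replicate 2. Those at day 30 moved from 0 to 952 with normexp, 695 with probes well above background on all arrays, 451 with an intensity trend, 334 with the deposited values, 121 in the fit of all arrays and 1 with each probe tested alone. Human probes on macaque RNA were not checked for mismatches.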
